A study of Mus musculus with 12 samples.

Results

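The clustered protocadherin genes were the 57 protein-coding genes on mouse chromosome 18 (GRCm38) whose symbols start with Pcdha, Pcdhb or Pcdhg, out of 20144 protein-coding genes that lie between the first and the last mapped domain of chromosomes 1 to 19. They comprised 14 alpha genes, 22 beta genes and 21 gamma genes, and every one was scored. Lamina-associated domains (LADs), the stretches of chromatin that touch the protein meshwork under the nuclear envelope, had been mapped by DamID in preimplantation mouse embryos. In this assay a Dam adenine methyltransferase fused to lamin B1 marks DNA near the lamina. The genes were placed in or outside the LADs of each group by the midpoint of the annotated gene.

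The groups were siRif1 8-cell, siControl 8-cell, siRif1 4-cell and siControl 4-cell embryos, all of the cross (C57BL/6J xCBA) x DBA/2J. Zygotes received 20 µM siRNA, either siRif1 against the chromatin and replication-timing protein Rif1 or siControl, whose target the labels do not name, at 17 to 18 h after hCG. Both blastomeres of all embryos were injected at 46 to 48 h with 20 ng/µL AID-Dam-LaminB1, with 100 ng/µL of membrane-eGFP as a marker and 250 ng/µL of Tir1, a plant auxin receptor. All were then kept in 500 µM auxin, which degrades the AID-tagged fusion. Auxin was removed at 66 h for 8-cell embryos, collected at 72 to 74 h, and at 54 h for 4-cell embryos, collected at 60 to 62 h. Each of the 3 replicates per group pooled 16 to 24 blastomeres, from 2 to 3 embryos at the 8-cell stage or 4 to 6 at the 4-cell stage. The deposited LADs are 1 list per group made from all 3 replicates, on a grid of 100 kb. They therefore carry no replicate error, no read depth and no RNA level, no difference between groups could be tested, and the knockdown could not be checked.

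Clustered protocadherins are cadherin-family adhesion proteins of the cell surface, best known from neurons, where each cell switches on its own small selection of them and so acquires an identity that its neighbours can recognise. In the alpha and gamma blocks each gene has its own promoter and first exon, which is spliced to constant exons shared by the whole block, whereas beta genes are single-exon genes without a shared part. Promoter choice involves the insulator protein CTCF and the ring-shaped cohesin complex, and the genes are known targets of silencing by DNA methylation and by Smchd1.

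The clustered protocadherin genes were LAD in siRif1 8-cell embryos and in no other group. In that list 36 of 57 genes (63.2%) had their midpoint in a LAD, where 24.2% of all protein-coding genes did. The count was 0 of 57 in siControl 8-cell embryos (26.3% of all protein-coding genes), 0 of 57 in siRif1 4-cell embryos (24.0%) and 0 of 57 in siControl 4-cell embryos (24.7%). Among the 509 protein-coding genes of chromosome 18, members counted, the shares were 37.7, 28.1, 27.5 and 37.9% in that order of groups. The alpha and beta blocks were taken whole, with 14 of 14 and 22 of 22 genes, and the gamma block had 0 of 21. All 36 genes lay in a single LAD, so they are 1 observation of 1 domain and not 36.

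**Figure D1:**
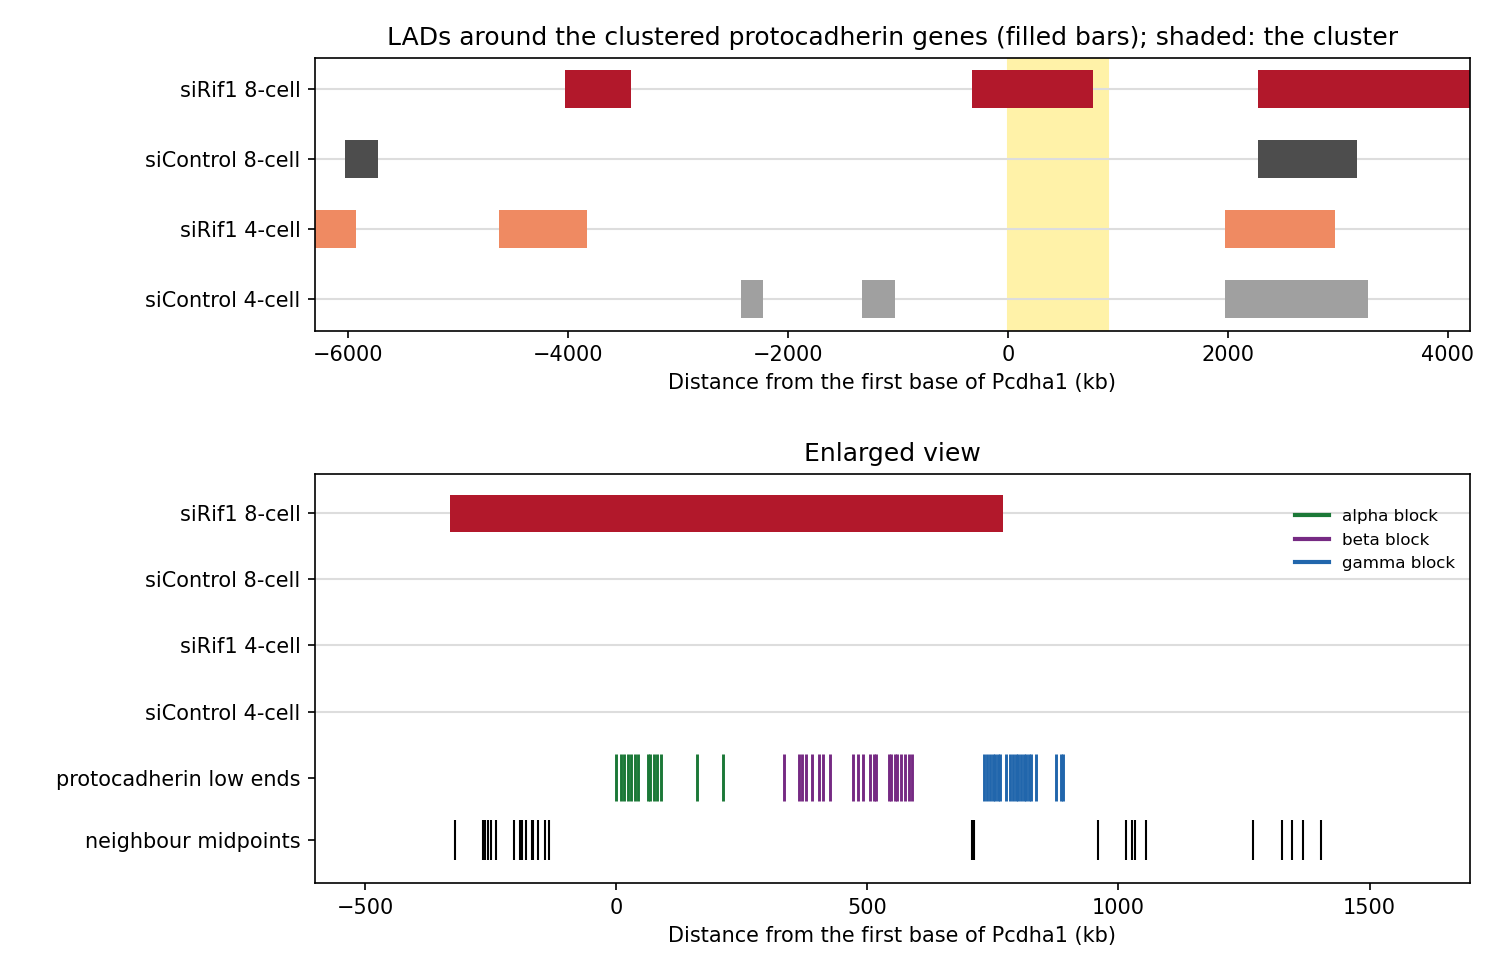
LADs (filled bars) in the 4 groups, plotted against the distance in kb from the first base of Pcdha1, with the cluster shaded in the wide view, and in the enlarged view the low-coordinate ends of the 57 protocadherin genes (coloured ticks) and the midpoints of neighbouring genes (black ticks). A single bar, in siRif1 8-cell embryos, covers the alpha and beta blocks and stops inside the gamma block, and the other 3 groups have no LAD over the cluster.

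That LAD ran from 36600001 to 37700000 on chromosome 18 and was 1.1 Mb long. The cluster itself spans 911.6 kb (36930285 to 37841873), and 769.7 kb of it (84.4%) were in the LAD. In siControl 8-cell, siRif1 4-cell and siControl 4-cell embryos the share was 0%. The LAD began 330.3 kb before Pcdha1 and ended within the gamma block, so it was not aligned with the cluster at either border.

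In the alpha block (36930285 to 37188897, 258.6 kb), which starts the cluster, all 14 genes were wholly inside the LAD of siRif1 8-cell embryos. These are Pcdha1 to Pcdha12, from which neurons choose at random, and Pcdhac1 and Pcdhac2, the C-type genes that neurons express more uniformly. Their annotated lengths run from 43.99 kb (Pcdhac2) to 257.4 kb (Pcdha1), because every entry reaches the shared exons, and their high-coordinate ends lie within 1240 bases of each other. Their midpoints were therefore packed into 106.7 kb, while their low-coordinate ends, which hold each gene's own exon, spread over 213.4 kb. Both placements gave the same state for each of the 14 genes. The alpha midpoints lay 459 to 565.7 kb from the border before the cluster and 534.3 to 641 kb from the border in the gamma block.

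The nearest LADs of the remaining groups were far from the alpha genes. Pcdha1 had its midpoint 2141 kb from the nearest LAD in siControl 8-cell embryos, 1841 kb in siRif1 4-cell embryos and 1159 kb in siControl 4-cell embryos. For Pcdhac2, at the other end of the block, the distances were 2034, 1734 and 1266 kb in that order of groups. On a grid of 100 kb, none of these alpha genes was near a border in the 3 groups in which they were outside LADs.

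The beta block (37264998 to 37521419, 256.4 kb) holds 22 short genes, Pcdhb1 to Pcdhb22, of 2.34 to 5.3 kb, so that for them the choice of midpoint or end makes little difference. All 22 were wholly in the LAD of siRif1 8-cell embryos, as were the 76.1 kb between the alpha and beta blocks. Their midpoints lay between 180.1 kb (Pcdhb22) and 433.8 kb (Pcdhb1) from the border in the gamma block and at least 666.2 kb from the border before the cluster. In siControl 8-cell embryos they were 1680 to 1934 kb from the nearest LAD, in siRif1 4-cell embryos 1380 to 1634 kb, and in siControl 4-cell embryos 1366 to 1498 kb. The beta midpoints occupied 4 successive bins of 100 kb, with 2, 6, 11 and 3 genes.

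The gamma block (37661775 to 37841873, 180.1 kb) was cut by the border of the LAD at 37700000. Of its bases 38.2 kb (21.2%) were LAD in siRif1 8-cell embryos. All 21 midpoints lay beyond the border, from 51.8 kb (Pcdhga1) to 130.7 kb (Pcdhgc5) past it. By their low-coordinate ends, which hold the individual first exons, the block divides. The ends of Pcdhga1, Pcdhga2, Pcdhga3, Pcdhgb1, Pcdhga4, Pcdhgb2 and Pcdhga5 were inside the LAD, and the ends of the remaining 14 gamma genes were outside it.

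Since the gamma genes share their high end, the part of each of these 7 genes that was LAD becomes smaller towards the border. It was 21.2% of the bases of Pcdhga1, 18.0% of Pcdhga2, 15.3% of Pcdhga3 and 12.2% of Pcdhgb1, followed by 9.43% of Pcdhga4, 6.67% of Pcdhgb2 and 3.81% of Pcdhga5. Pcdhga5 begins 5.62 kb before the border and Pcdhga6, the first gene with no LAD base, 7.10 kb after it. The grid step of 100 kb is wider than the distance between these starts, so the list cannot say which of them the edge of lamina contact separates. The C-type genes Pcdhgc3, Pcdhgc4 and Pcdhgc5, whose low ends are 106.4, 115.1 and 119.5 kb beyond the border, were outside LADs in all 4 groups, unlike the C-type genes of the alpha block.

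**Figure D2:**
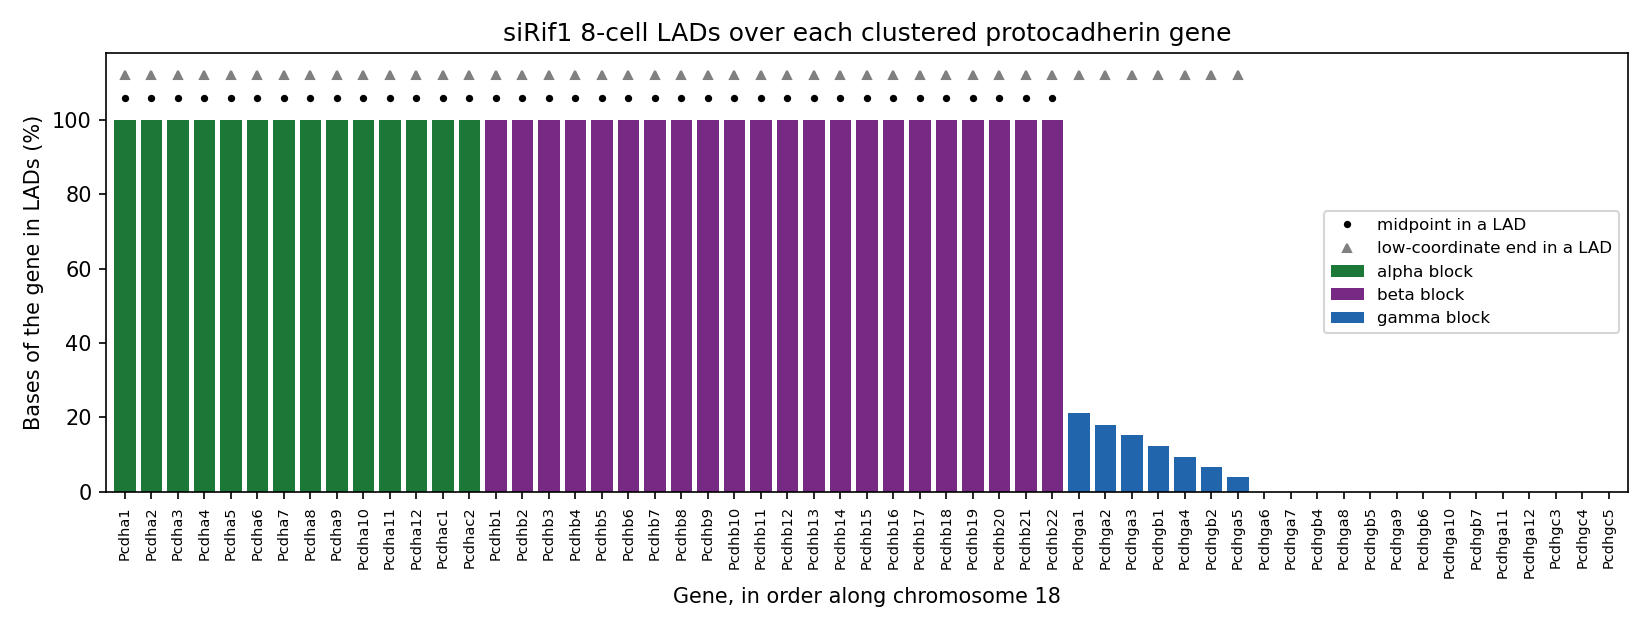
Percent of the bases of each of the 57 genes that lay in LADs of siRif1 8-cell embryos, in their order along chromosome 18, with dots for genes whose midpoint was in a LAD and triangles for genes whose low-coordinate end was. The 36 alpha and beta genes stand at 100%, and 7 gamma genes descend from 21.2% to 3.81% while the other 14 are at 0%.

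The comparison at the 8-cell stage asked which genes change their place at the lamina on depletion of Rif1. Of the 57 genes, 36 were LAD in siRif1 embryos alone, 0 went the other way, 0 were in both and 21 in neither. Among all protein-coding genes 7.33% were LAD in siRif1 alone (1476 genes) and 9.37% in siControl alone (1888 genes). On chromosome 18 the corresponding counts were 88 and 39 genes, with the members counted. By low-coordinate ends the count was 43 of 57 genes, beside 7.40% of all protein-coding genes. Since the 36 genes share 1 domain, their share against this background describes a single stretch of chromosome and has no test.

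At the 4-cell stage the genes were in the same state in siRif1 and siControl embryos. The counts of LAD in siRif1 alone and in siControl alone were both 0 of 57, with 7.37% and 8.08% of all protein-coding genes, and all 57 genes were outside LADs in both groups. Whether the difference between siRif1 and siControl embryos itself differs between the 8-cell and the 4-cell stage was not tested, because each group is a single pooled list.

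Between stages, control embryos also showed no member in LADs. In siControl 8-cell against siControl 4-cell embryos 0 of 57 genes belonged to LADs of the 8-cell list alone (11.2% of all protein-coding genes) and 0 to those of the 4-cell list alone (9.59%). In siRif1 8-cell against siRif1 4-cell embryos 36 of 57 genes belonged to LADs of the 8-cell list alone (8.83%) and 0 to those of the 4-cell list alone (8.58%). This comparison and the one between siRif1 and siControl at the 8-cell stage share the siRif1 8-cell list, and the 36 genes are counted from the same LAD in both.

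Across the 4 lists, only 2 of the 16 possible patterns occurred among the members. The pattern LAD in siRif1 8-cell embryos alone held 36 of them and 777 protein-coding genes in all (3.86%), so the clustered protocadherins made up 4.63% of the genes with it. The pattern outside LADs throughout held the 21 gamma genes and 11570 protein-coding genes (57.4%). On chromosome 18 there were 66 genes LAD in siRif1 8-cell embryos alone, of which 56 lay in the LAD over the cluster and 10 elsewhere.

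Among the 738 LADs of siRif1 8-cell embryos, the LAD over the cluster was ordinary in length and rich in genes. Its 1.1 Mb compare with a median of 0.9 Mb (rank 304). It held 56 protein-coding genes, against a median of 3 per LAD (rank 10), or 50.9 genes per Mb against a median of 3.08 (rank 5). Leaving out the 36 members, the remaining 20 genes gave 18.2 per Mb, and the mapped chromosomes as a whole had 8.45 per Mb. These 20 include Gm37013, Gm38666 and Gm38667, which run from the alpha block to the end of the gamma block and so belong to the cluster's own stretch.

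The LAD was also detached from the LADs of every other list. Of the 738 LADs, 84 (11.4%) shared no base with a LAD of the other 3 groups, and their median length was 0.2 Mb and their median content 1 gene. Among these 84 the LAD over the cluster was second in length, after one of 1.4 Mb on chromosome 2 (35900001 to 37300000), and first in genes, with 56 against at most 33. That rank counts the 36 members, and the 20 other genes are fewer than the 33 of the LAD on chromosome 2. With members counted, the LAD over the cluster held 19.7% of the 284 genes that lie in such LADs. Among the 612 stretches specific to siRif1 LADs in the comparison with siControl at the 8-cell stage, it had the most genes, again with members counted. The next had 33, and 37 stretches were longer.

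**Figure D3:**
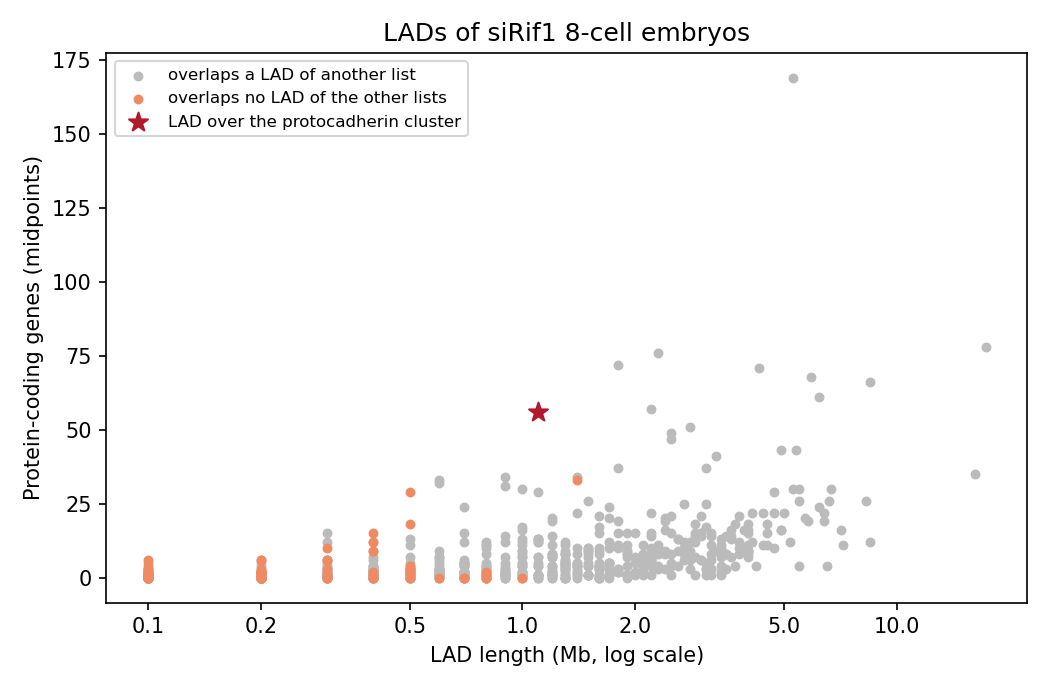
Length in Mb (log scale) and number of protein-coding gene midpoints of the 738 LADs of siRif1 8-cell embryos, in grey where a LAD overlaps a LAD of another group, in orange where it overlaps none, and with a star for the LAD over the protocadherin cluster. The star, at 1.1 Mb and 56 genes, of which 36 are members, stands above all orange points, which reach 33 genes.

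Without the LAD over the cluster, the LAD-free stretch around it in siRif1 8-cell embryos would run for 5.7 Mb (33500001 to 39200000), the 40th longest of 718. In siControl 8-cell embryos it ran for 8 Mb (31200001 to 39200000), the longest of 29 such gaps on chromosome 18 and the 15th longest of 727 in the list. It was 5.8 Mb in siRif1 4-cell embryos, the 37th longest of 625. In siControl 4-cell embryos it was 3 Mb, the 172nd longest of 582 (median 1.8 Mb) and the 5th of 26 on chromosome 18. There it ended at a LAD of 0.3 Mb at 35600001 to 35900000, 1.03 Mb before Pcdha1. These gaps held 137, 159, 137 and 99 protein-coding genes in that order of groups, 19.9 to 33 per Mb. These counts include the clustered protocadherin genes, which made up 41.61, 35.85, 41.61 and 57.58% of them in the same order. The nearest LAD on the high-coordinate side began 1.36 Mb after the cluster in siRif1 8-cell and siControl 8-cell embryos, at 39200001, and 1.06 Mb after it in siRif1 4-cell and siControl 4-cell embryos, at 38900001.

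On the low-coordinate side the LAD of siRif1 8-cell embryos took in the midpoints of 15 protein-coding genes in its first 330.3 kb, and all 15 were outside LADs in the other 3 groups. They include Hars and Hars2, the cytosolic and mitochondrial histidyl-tRNA synthetases, and Ndufa2, a subunit of respiratory complex I. Ik and Zmat2 encode splicing factors, and Eif4ebp3 encodes an inhibitor of translation initiation. Cd14, a co-receptor for bacterial lipopolysaccharide, and Dnd1, an RNA-binding protein of germ cells, lie 203.5 and 164.1 kb before the cluster. The first gene in the LAD was Ankhd1, and Zmat2, 130.6 kb before Pcdha1, was the closest to the cluster. The LAD thus covered 66.1% of the 0.5 Mb before the cluster in siRif1 8-cell embryos, and the other groups had 0% there.

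Within the cluster, the 140.4 kb between the beta and gamma blocks were also LAD in siRif1 8-cell embryos. They hold Slc25a2, a mitochondrial ornithine carrier, and Taf7, a subunit of the general transcription factor TFIID, and both were LAD in that group and outside LADs in the other 3. Another 3 annotated genes, Gm37013, Gm38666 and Gm38667, run from the alpha block to the end of the gamma block over 889.2, 874.2 and 868.1 kb. Their midpoints fall in the beta block, which makes them LAD in siRif1 8-cell embryos by this placement although their high ends were outside.

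On the high-coordinate side no gene near the cluster was LAD in any group. The 10 nearest protein-coding genes were Diaph1, a formin that starts 1.7 kb after the gamma block, the histone deacetylase gene Hdac3, Rell2, Fchsd1, Arap3, Pcdh1, Dele1, Pcdh12, Rnf14 and Gnpda1. By contrast, the 10 nearest genes on the low-coordinate side were all LAD in siRif1 8-cell embryos and outside LADs in the other 3. The cluster thus lay across the end of a LAD in siRif1 8-cell embryos. Its last block had 21.2% of its bases inside that LAD and all its gene midpoints outside.

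Of 10 protocadherin genes outside the cluster, 7 were outside LADs in all 4 groups, near the 57.4% of all protein-coding genes. These were Pcdh1 and Pcdh12, the neighbours just named, and Pcdh7, Pcdh9, Pcdh17, Pcdh18 and Pcdh20. Pcdh8 was LAD in siControl 4-cell embryos alone and Pcdh10 in siRif1 4-cell embryos alone. Pcdh15, a protein of the tip links of hair cells, was LAD in siControl 8-cell and siRif1 4-cell embryos. None of the 10 had its midpoint in a LAD of siRif1 8-cell embryos, where 24.2% of all protein-coding genes did. For Pcdh15 this depends on the midpoint, because the gene is 1553.6 kb long (73096277 to 74649831 on chromosome 10). Its low-coordinate end lay in a siRif1 8-cell LAD at 72400001 to 73700000. Its high-coordinate end lay in another at 74500001 to 74900000. The alpha and beta genes were LAD in siRif1 8-cell embryos, and with 10 genes the difference was not tested.

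The other cadherin genes of chromosome 18 scored here are Cdh2, which encodes N-cadherin, and the desmosomal Dsc and Dsg genes, whose products hold epithelial cells together. All 10 were LAD in siRif1 8-cell embryos, 8 in siControl 8-cell, 1 in siRif1 4-cell and 10 in siControl 4-cell embryos. The shares of all protein-coding genes were 24.2, 26.3, 24.0 and 24.7% in that order of groups. Among chromosome 18 genes they were 37.7, 28.1, 27.5 and 37.9%, also lower in siControl 8-cell and siRif1 4-cell embryos. The desmosomal genes form 1 locus (19960930 to 20604526), of which Dsg2 and Dsg3 alone were LAD in siRif1 and outside LADs in siControl 8-cell embryos. Of the 7 Celsr and Fat genes, giant cadherins of planar polarity, 0 were LAD in siRif1 8-cell embryos alone and 4 were outside LADs in all 4 groups. Among all protein-coding genes these patterns held 3.86% and 57.4%, so counts out of 7 do not set this family apart.

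Set beside other clustered families, the protocadherins ranged from 0 to 63.2% between groups. Olfactory receptor genes were LAD in 55.8% of 1101 cases in siRif1 8-cell, 58.8% in siControl 8-cell, 36.0% in siRif1 4-cell and 24.7% in siControl 4-cell embryos. Vomeronasal receptor genes had 41.8, 69.3, 19.8 and 14.9% of 349 in the same order, and 1 of them was LAD in siRif1 8-cell embryos alone. The 39 Hox genes had 9, 9, 0 and 9 in LADs in that order of groups, and the 53 keratin genes had 1, 20, 0 and 7. At the 8-cell stage 9 Hox genes were LAD in siRif1 and outside in siControl and 9 the reverse, and for keratin genes these counts were 1 and 20. Of the 39 Hox genes, 9 (23.1%) were LAD in siRif1 8-cell embryos and in none of the other 3 groups, against 36 of 57 clustered protocadherins (63.2%), 107 of 1101 olfactory receptor genes (9.72%) and 1 of 53 keratin genes (1.89%). These families lie on 16 (olfactory), 10 (vomeronasal), 4 (Hox) and 2 (keratin) chromosomes and the protocadherins at 1 locus, so their shares are not like for like and were not tested. How many LADs hold the 9 Hox genes was not counted, so they too may be 1 domain and not 9 observations. The lower Hox share therefore does not show that the pattern is particular to the protocadherins.

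**Figure D4:**
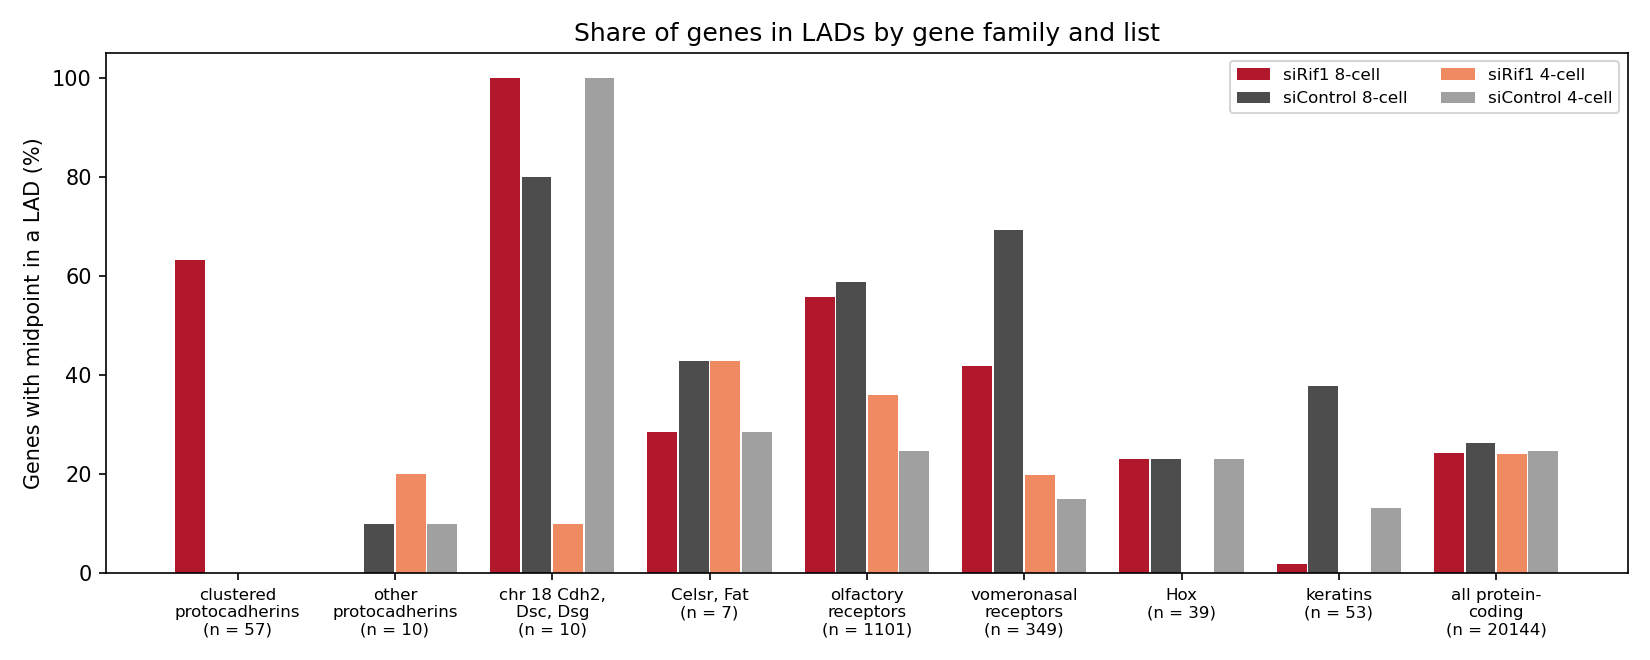
Percent of genes with their midpoint in a LAD, for the clustered protocadherins, other cadherin genes and other clustered families, with bars for siRif1 8-cell, siControl 8-cell, siRif1 4-cell and siControl 4-cell embryos and n the number of genes. The clustered protocadherins have a bar in siRif1 8-cell embryos alone (63.2%), and all protein-coding genes stay between 24.0% and 26.3%.

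Of 26 listed genes of chromatin proteins known to act on the cluster or on the choice of its promoters, 25 were scored. Dnmt3a, the remaining listed gene, was not among the annotated genes used here and has no state. Of the 25, 17 were outside LADs in all 4 groups, near the share of all protein-coding genes (57.4%). These include Ctcf, the cohesin genes Rad21, Nipbl and Wapl, Smchd1 and the histone methyltransferase gene Setdb1. Dnmt3b, which encodes a DNA methyltransferase that methylates protocadherin promoters in the early embryo, was LAD in siRif1 8-cell embryos alone. It was the 1 gene of the 25 (4.00%) with this pattern, beside 3.86% of all protein-coding genes. Atf7ip, a partner of Setdb1, was LAD in siRif1 8-cell and siControl 4-cell embryos. Smc3, a cohesin subunit, and Ehmt2, a histone methyltransferase, were LAD in siControl 4-cell embryos alone. Pds5b, another cohesin gene, was LAD in siControl 8-cell, siRif1 4-cell and siControl 4-cell embryos. Stag1, also a cohesin gene, was LAD in siRif1 4-cell and siControl 4-cell embryos. Trim28 and Tet2 were LAD in all 4 groups. In total 4 of the 25 were LAD in siRif1 8-cell, 3 in siControl 8-cell, 4 in siRif1 4-cell and 7 in siControl 4-cell embryos, beside 24.2, 26.3, 24.0 and 24.7% of all protein-coding genes. Rif1 itself was outside LADs in all 4 groups.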

How the data were processed

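Per the submitters' processing notes, reads were handled with Trimmomatic, Bowtie2, SAMtools and Picard on mm10 (GRCm38). How LADs were called, and whether Dam alone served as a background, is not given in the sources used here. The authors deposited 1 list of LAD starts and ends per group, made from all 3 replicates. The score column holds only 0 and was left aside. Depth per sample is unknown, so no interval for counting error is given.

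The 0-based starts of the lists were converted to 1-based positions on GRCm38. Genes came from the RefSeq annotation of GRCm38.p6, without 333 of 47042 entries whose order shows scaffold coordinates. Of the protein-coding genes, 20144 have their midpoint between the first and last LAD of chromosomes 1 to 19. A gene is LAD where its midpoint lies in an interval. The midpoint, counts and shares were computed in Python 3.11.15 with pandas 2.3.3, and the interval functions were tested on simulated data. No test between groups was made. Named genes are the members, genes inside the cluster, 10 neighbours on each side, and listed cadherin, regulator and partner genes. Ankhd1 and Eif4ebp3, beyond the 10, were named after their values were seen. The members and lists were chosen with earlier results of these data known. Chromosome 18 sequences were not used here.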

Additional observations from a re-analysis of the deposited data

How the results depend on the processing

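Of 144 values recomputed under 8 alternatives for 24 results, 142 stayed within 1.5 times the reported count or at the reported percent. The 18 results at 0 stayed at 0 in every alternative, but these alternatives could not have moved them. In siControl 8-cell, siRif1 4-cell and siControl 4-cell embryos the nearest LAD was at least 1030.3 kb from the cluster. The alternatives moved borders by 1 bin of 100 kb, bridged gaps of up to 200 kb, dropped short LADs or changed the part of the gene used. The tally of 142 includes these results and is therefore no measure of robustness. In siRif1 8-cell embryos 36 members were LAD by the midpoint, by the high-coordinate end, with the whole gene in the LAD, with LADs of at least 300 kb, with gaps of up to 200 kb bridged and with LADs shortened by 1 bin. The low-coordinate end, or any base of the gene, gave 43, and LADs lengthened by 1 bin gave 53. The percent of the gamma block in LADs of siRif1 8-cell embryos moved with the border, from 21.22% as reported to 76.75% with LADs lengthened by 1 bin and to 0% with LADs shortened by 1 bin. No paired analysis was possible because each list pools its 3 replicates, and for the same reason leaving out a replicate was not run. All member results rest on 1 LAD call, whose score and depth are unknown, and whose repeatability was not tested.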

Other observations

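The genes of proteins that work with protocadherins at the membrane were scored as well. These are the focal adhesion kinases Ptk2 and Ptk2b, which protocadherins inhibit, the actin-regulating WAVE complex, the kinase Fyn, and a few other signalling and adhesion genes, 15 in all. Of the 15, 10 were outside LADs in all 4 groups, near the share of all protein-coding genes (57.4%), among them Ptk2, Ptk2b, Wasf1, Cyfip1 and Brk1. Nckap1, a WAVE complex subunit, and Fyn were LAD in siRif1 8-cell and siControl 4-cell embryos and outside LADs in siControl 8-cell and siRif1 4-cell embryos. Abi2 was LAD in siRif1 4-cell and siControl 4-cell embryos, Cyfip2 in siControl 4-cell embryos alone, and the synaptic adhesion gene Nlgn1 in siRif1 4-cell embryos alone. Of the 15, 0 were LAD in siRif1 8-cell embryos alone, beside 3.86% of all protein-coding genes.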
